A study of Mus musculus with 8 samples.

Results

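Fibroblast growth factor (FGF) receptors and the genes that answer to them were followed in cells sorted from gastrulating mouse embryos. The set held 10 genes: the receptors Fgfr1, Fgfr2, Fgfr3 and Fgfr4, the Sprouty inhibitors Spry1, Spry2 and Spry4, the phosphatase gene Dusp6, and the ETS transcription factor genes Etv4 and Etv5. The genes were picked with earlier results of these data known, and their probe sets were then taken by name, as all those whose platform annotation was exactly 1 of these symbols. This gave 23 probe sets of 10 genes, of 17097 genes named on the array. A filter on low values kept 17 of the 23 probe sets and at least 1 probe set of each of the 10 genes. Where a gene had several kept probe sets, the one with the highest mean over the arrays stood for it. These were 1425911_PM_a_at for Fgfr1, 1420847_PM_a_at for Fgfr2, 1425796_PM_a_at for Fgfr3, 1418596_PM_at for Fgfr4, 1415874_PM_at for Spry1, 1421656_PM_at for Spry2, 1440867_PM_at for Spry4, 1415834_PM_at for Dusp6, 1443381_PM_at for Etv4 and 1428142_PM_at for Etv5.

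All embryos carried the same pair of transgenes, Mesp1-rtTA and Teto-H2B-GFP, in which the Mesp1 locus or promoter drives a tetracycline-controlled activator that switches on a nuclear green fluorescent histone. The 4 groups were GFP+ cells at embryonic day (E) 7.5, GFP- cells at E7.5, GFP+ cells at E6.5 and GFP- cells at E6.5. Each had 2 arrays that the labels call biological replicates 1 and 2, and each array measured amplified cDNA of 50 living sorted cells. Strain, the number of embryos per sample and the doxycycline schedule are not given in the sources used here. GFP reports activity of the Mesp1-driven activator, and because the fluorescent histone is long-lived, a GFP+ cell need not transcribe Mesp1 at the time of sorting.

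FGF ligands bind receptor tyrosine kinases with heparan sulphate as a cofactor, and the activated receptor signals through RAS, RAF and MEK to the kinase ERK. ERK activity switches on its own brakes, the Sprouty proteins upstream and DUSP6, which dephosphorylates ERK, as well as the transcription factors ETV4 and ETV5. In mouse gastrulation, FGFR1 is needed for cells to leave the primitive streak and to form mesoderm.

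Values are log2 expression values per probe set, and a difference of 1 is a factor of 2. Levels of different probe sets cannot be compared, because each has its own affinity. The median of all deposited values, 4.38, served as the level below which a value is close to the array's dim end, and the size of a difference against such a value is uncertain. Differences are given with the standard error (SE) of a limma fit on all 8 arrays, and adjusted p-values are Benjamini-Hochberg values of that fit over 11706 genes. Arrays with the same replicate number shared an offset, so differences within each number are given too, and so is the adjusted p of the fit with replicate number as a block where it changed a call. In these pools of cells, fewer cells of a type and less RNA per cell cannot be told apart.

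Mesp1, the gene behind the reporter, had 8.75 and 8.65 in GFP+ cells and 7.76 and 8.06 in GFP- cells at E7.5, and 9.75 and 10.03 in GFP+ cells and 5.64 and 6.26 in GFP- cells at E6.5. It was 3.94 higher in GFP+ cells at E6.5 (SE 0.33, adjusted p = 0.0209, limma). Other cell types differed between the groups as well. The mean log2 level of 12 visceral endoderm markers was 4.74 to 4.90 in GFP+ and 4.80 to 5.80 in GFP- arrays at E7.5, and 4.29 to 4.83 in GFP+ and 5.85 to 7.65 in GFP- arrays at E6.5. For 8 epiblast markers it was 6.54 to 6.88 in GFP+ and 7.92 to 8.003 in GFP- arrays at E7.5, and 7.80 to 8.20 in GFP+ and 9.38 to 9.50 in GFP- arrays at E6.5. For 7 markers of streak and nascent mesoderm it was 9.43 to 10.02 in GFP+ and 8.55 to 8.66 in GFP- arrays at E7.5, and 10.22 to 10.23 in GFP+ and 6.04 to 7.37 in GFP- arrays at E6.5.

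The promoters of 4 members that stand for the patterns described here (a receptor, a Sprouty gene, the phosphatase and an ETS factor) are shown as the 250 bases before the annotated start, from RefSeq on GRCm38.p6, on the strand of the gene. They lie at chr7:130266809-130267058 on the minus strand for Fgfr2, chr3:37639697-37639946 on the plus strand for Spry1, chr10:99262981-99263230 on the plus strand for Dusp6 and chr16:22439571-22439820 on the minus strand for the first of the starts of Etv5. Capitals mark matches to CGGAAG on either strand, a form of the letters that ETS factors such as ETV4 and ETV5 are known to bind. Variant forms were not searched or marked, such as AGGAAG in the Fgfr2 window and CGGAAA in the Dusp6 window.
Fgfr2: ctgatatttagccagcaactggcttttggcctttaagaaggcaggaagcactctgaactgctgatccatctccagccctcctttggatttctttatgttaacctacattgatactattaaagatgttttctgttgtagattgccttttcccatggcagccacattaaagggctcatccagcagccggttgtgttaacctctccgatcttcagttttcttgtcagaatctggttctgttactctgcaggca
Spry1: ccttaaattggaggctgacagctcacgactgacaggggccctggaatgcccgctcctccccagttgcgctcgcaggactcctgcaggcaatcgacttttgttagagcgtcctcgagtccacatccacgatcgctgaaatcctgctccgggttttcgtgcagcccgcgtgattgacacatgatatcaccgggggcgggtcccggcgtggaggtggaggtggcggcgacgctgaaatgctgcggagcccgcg
Dusp6: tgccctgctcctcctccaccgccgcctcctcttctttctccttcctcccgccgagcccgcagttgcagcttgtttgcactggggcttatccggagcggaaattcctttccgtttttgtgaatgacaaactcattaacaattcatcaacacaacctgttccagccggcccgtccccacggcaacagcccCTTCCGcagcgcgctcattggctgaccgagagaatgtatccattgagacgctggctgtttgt
Etv5: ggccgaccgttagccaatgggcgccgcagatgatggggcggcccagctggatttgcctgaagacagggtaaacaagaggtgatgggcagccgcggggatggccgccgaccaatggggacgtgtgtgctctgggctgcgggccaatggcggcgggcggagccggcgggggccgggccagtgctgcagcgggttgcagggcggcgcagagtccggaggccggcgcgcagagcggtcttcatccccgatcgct
The Dusp6 window held 1 match, written as its reverse complement CTTCCG with its first base at position -62 from the start. Among 9 promoter windows of the 7 members with an entry, this was the only match to CGGAAG. Of all 32841 promoter windows of that length, 13.6% held the letters. A match is a description of these letters, not a measured binding site.

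The clearest stage difference was that of Fgfr2. On the mean of both fractions, Fgfr2 rose at E7.5 against E6.5, by 2.26 (SE 0.20, adjusted p = 0.0124, limma), a factor of 4.78. It was the 1 member of 10 past the threshold in that comparison, beside 0.256% of all genes tested. The ranges of the 4 E7.5 arrays and the 4 E6.5 arrays did not overlap for 5 of the 10 members, beside 4.41% of all genes. Fgfr1, Fgfr2 and Fgfr3 were higher at E7.5 on every array and Etv4 and Etv5 lower. At an unadjusted p under 0.05 the same comparison held these 5 genes, beside 7.20% of all genes. Over the 10 members the median stage difference was -0.50, against -0.02 over all genes, with 3 members above 0 and 7 below.

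**Figure D1:**
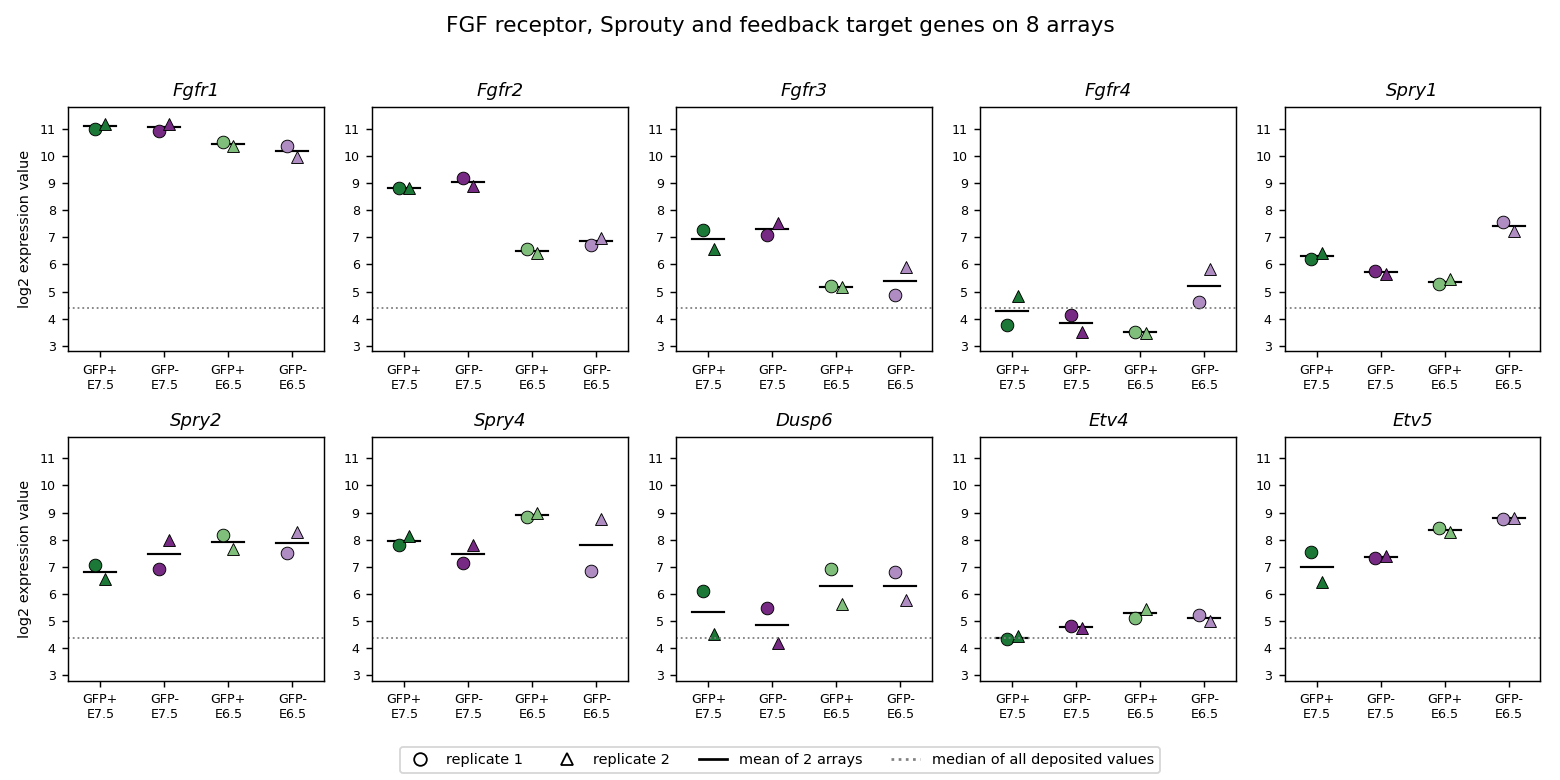
Log2 expression values of the probe set used for each of the 10 genes. Points are single arrays (circle replicate 1, triangle replicate 2), black bars the mean of 2 arrays and the dotted line the median of all deposited values. Fgfr2 sits between 8.80 and 9.18 on the E7.5 arrays and between 6.42 and 6.97 on the E6.5 arrays, while Spry1 is highest in GFP- cells at E6.5.

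Fgfr2 encodes the receptor whose splice forms serve epithelia or mesenchyme. At E7.5 it had 8.80 and 8.82 in GFP+ cells and 9.18 and 8.91 in GFP- cells. At E6.5 it had 6.57 and 6.42 in GFP+ cells and 6.72 and 6.97 in GFP- cells. The lowest E7.5 array thus lay well above the highest E6.5 array in both fractions. In GFP+ cells the stage difference was 2.32 (SE 0.28, adjusted p = 0.125), with 2.23 and 2.40 within the replicate numbers. In GFP- cells it was 2.20 (SE 0.28, adjusted p = 0.0652), with 2.46 and 1.93 within the numbers, and it passed with the replicate block (adjusted p = 0.0304). The difference of these stage differences was small against its error, at 0.12 (SE 0.40). The stage call rested on the full set of arrays: leaving out any 1 of 7 arrays gave adjusted p-values of 0.0505 to 0.0890, and only leaving out GFP- E6.5 replicate 2 kept it (0.0371). The difference itself stayed between 2.19 and 2.33. Fgfr2 is known to act in extraembryonic ectoderm. In GFP+ cells the mean level of 7 markers of this tissue was 5.33 to 5.36 at E7.5 against 4.69 to 5.11 at E6.5. Single markers did not all move with that mean. From E6.5 to E7.5 the GFP+ group mean of Hand1 went from 7.29 to 9.12, with overlapping arrays, and that of Rhox5 from 4.87 to 5.85. Sox21 rose less. Elf5 (3.87 to 3.98), Wnt7b (3.99 at both stages) and Ascl2 (4.86 to 4.96) changed little, and Tfap2c fell from 4.70 to 4.49. In GFP- cells the mean levels of the 7 markers were 7.52 and 5.70 at E7.5, against 5.40 and 6.28 at E6.5. The array at 7.52, GFP- E7.5 replicate 1, also held the highest Fgfr2 value. The part of this tissue in the Fgfr2 result was not tested.

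A second probe set of Fgfr2, 1433489_PM_s_at, told the fractions apart at E6.5. It had 6.86 and 6.82 in GFP+ cells and 7.74 and 7.63 in GFP- cells at E7.5, and 4.12 and 4.14 in GFP+ cells and 5.88 and 7.25 in GFP- cells at E6.5. Both GFP+ arrays at E6.5 lay below 4.38, so the size of the gap there is uncertain. In a fit over all 18584 kept probe sets its difference between GFP+ and GFP- cells at E6.5 missed the threshold (-2.43, SE 0.45, adjusted p = 0.214). The probe set used for the gene gave -0.35 there (SE 0.28). Stage differences of the second probe set were 2.71 in GFP+ and 1.12 in GFP- cells (SE 0.45 each), so it shared the direction of the first. At E6.5 the mean levels of the extraembryonic ectoderm and of the visceral endoderm markers were also lower in both GFP+ arrays than in both GFP- arrays. Not every marker followed its mean. Hand1 went the other way, with 6.26 and 8.32 in GFP+ against 5.40 and 5.79 in GFP- cells. Ascl2, Tfap2c, Sox17 and Apom overlapped between the fractions. The part of these tissues in the result was not tested. The remaining probe set, 1443211_PM_at, stayed at 3.15 to 3.79 on all arrays and was not kept.

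Fgfr3, a receptor best known for restraining bone growth, was also higher at E7.5. It had 7.28 and 6.57 in GFP+ cells and 7.07 and 7.53 in GFP- cells at E7.5, and 5.19 and 5.17 in GFP+ cells and 4.89 and 5.90 in GFP- cells at E6.5. The E7.5 arrays all lay above the E6.5 arrays. On the mean of both fractions the difference was 1.82 (SE 0.31) and missed the threshold (adjusted p = 0.0907). It was 1.74 in GFP+ and 1.905 in GFP- cells (SE 0.43 each). The other kept probe set of Fgfr3, 1421841_PM_at, did not show this. Its values were 5.75 and 5.19 in GFP+ and 6.17 and 5.71 in GFP- cells at E7.5, and 5.36 and 5.47 in GFP+ and 5.73 and 5.24 in GFP- cells at E6.5. Its stage differences were 0.06 in GFP+ and 0.46 in GFP- cells (SE 0.36 each).

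Fgfr1 is the receptor that epiblast and streak cells are known to use. At E7.5 it had 10.9996 and 11.18 in GFP+ cells and 10.93 and 11.18 in GFP- cells. At E6.5 it had 10.51 and 10.35 in GFP+ cells and 10.37 and 9.96 in GFP- cells. Stages did not overlap and fractions of 1 stage did. The mean stage difference was 0.78 (SE 0.21, adjusted p = 0.304), with 0.66 in GFP+ and 0.89 in GFP- cells (SE 0.30 each). Its other 2 probe sets gave 0.88 (SE 0.31) and 0.97 (SE 0.59) in the fit over probe sets, so all 3 were higher at E7.5 and none passed.

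Fgfr4, which is known from the endoderm and its derivatives, lay near the dim end of the array. Its kept probe set had 3.77 and 4.83 in GFP+ cells and 4.13 and 3.52 in GFP- cells at E7.5, and 3.52 and 3.47 in GFP+ cells and 4.61 and 5.83 in GFP- cells at E6.5. Only 3 arrays exceeded 4.38, both GFP- arrays at E6.5 among them. The gap between GFP+ and GFP- cells at E6.5 was -1.73 (SE 0.52, adjusted p = 0.511), with -1.10 and -2.36 within the numbers. In GFP- cells the stage difference was -1.40 (SE 0.52, adjusted p = 0.666). Its other 4 probe sets lay between 2.53 and 4.3985 and were not kept. At E6.5 the 12 visceral endoderm markers, at 4.29 to 4.83 in GFP+ and 5.85 to 7.65 in GFP- arrays, differed in the same direction as Fgfr4. At E7.5 they did not run with it. The highest marker mean there, 5.80 in GFP- replicate 2, stood with the lowest Fgfr4 value, 3.52. The highest Fgfr4 value, 4.83 in GFP+ replicate 2, stood with a marker mean of 4.90. Of these markers 4 to 6 were below 4.38 on a GFP+ array at E6.5, and 0 on the GFP- arrays. Their part in the result was not tested.

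**Figure D2:**
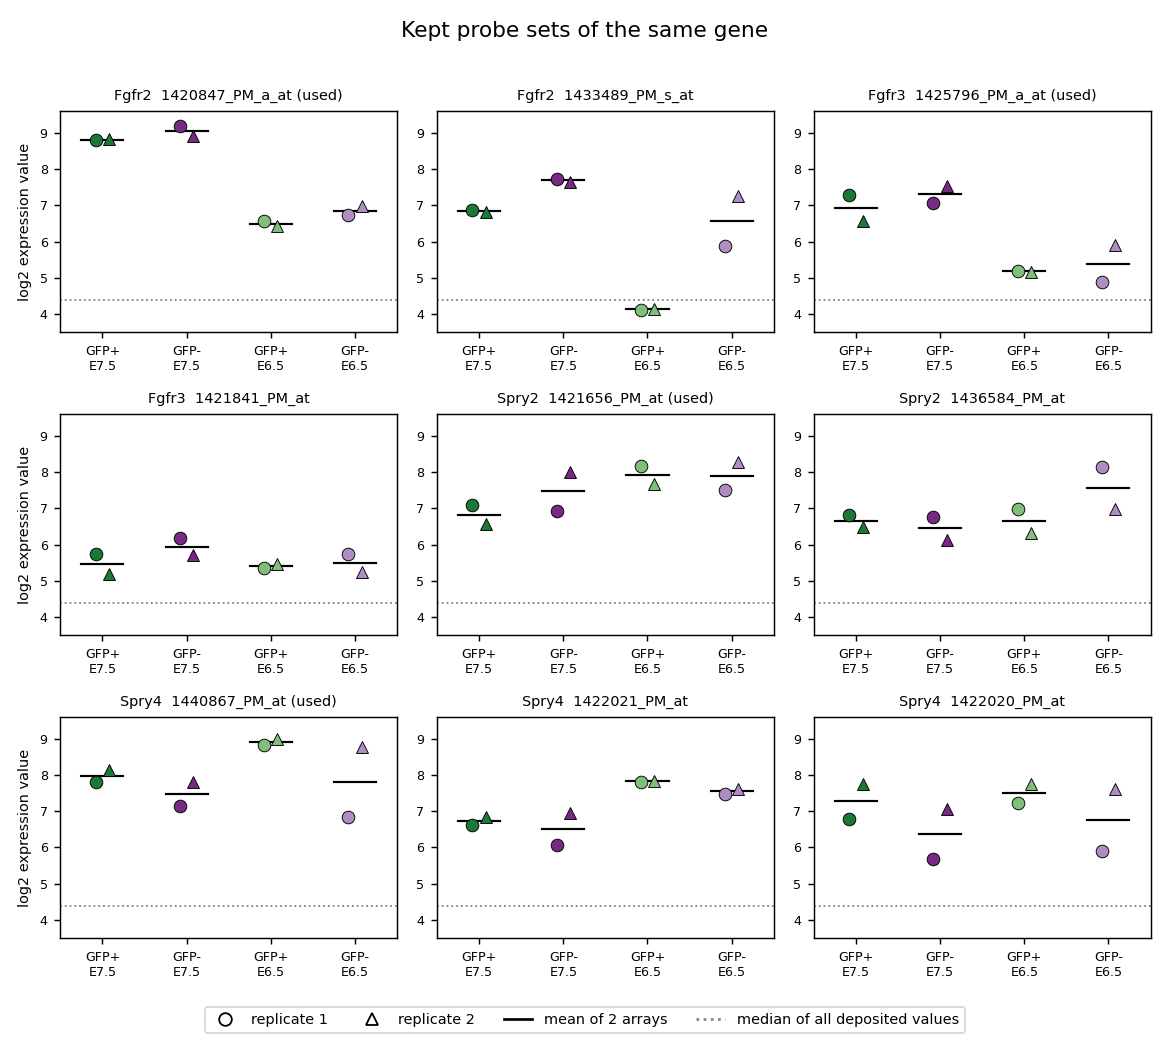
Kept probe sets of Fgfr2, Fgfr3, Spry2 and Spry4, drawn as in the plot of the 10 genes, with the probe set used for each gene marked. The 2 Fgfr3 probe sets part at E7.5, and the second Fgfr2 probe set is near 4.13 in GFP+ cells at E6.5 against 5.88 and 7.25 in GFP- cells.

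Among the Sprouty genes, Spry1 differed between the fractions. It had 6.19 and 6.43 in GFP+ cells and 5.75 and 5.66 in GFP- cells at E7.5, and 5.28 and 5.46 in GFP+ cells and 7.58 and 7.24 in GFP- cells at E6.5. GFP- cells at E6.5 thus held the highest values, and the order of the fractions was the other way round at E7.5. At E6.5 the difference was -2.04 for GFP+ against GFP- cells (SE 0.29, adjusted p = 0.0996), a factor of 4.10 lower in GFP+ cells, with -2.29 and -1.78 within the numbers. With the replicate block it passed (adjusted p = 0.0480). At E7.5 it was 0.60 (SE 0.29), with 0.43 and 0.77 within the numbers.

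The gap of Spry1 at E7.5 minus that at E6.5 was 2.64 (SE 0.41) and missed the threshold (adjusted p = 0.738). Seen by stage, Spry1 differed by 0.94 at E7.5 against E6.5 in GFP+ cells (SE 0.29, adjusted p = 0.929) and by -1.70 in GFP- cells (SE 0.29, adjusted p = 0.124). Its fraction difference had opposite signs at the 2 stages in both replicate numbers, as did 12.2% of all genes. Its stage difference had opposite signs in the 2 fractions, which held for 2 members (Fgfr4 and Spry1) and for 11.4% of all genes. Fgfr4 was kept mainly through the GFP- arrays at E6.5, so its place there is no support. Visceral endoderm markers ran at 5.85 to 7.65 in the GFP- arrays at E6.5, higher than on any array of the other groups. Epiblast markers were at 9.38 to 9.50 in the same arrays. The part of either in the Spry1 result was not tested.

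Spry2 had 7.08 and 6.57 in GFP+ cells and 6.92 and 8.002 in GFP- cells at E7.5, and 8.17 and 7.67 in GFP+ cells and 7.51 and 8.28 in GFP- cells at E6.5. Its GFP+ arrays did not overlap between the stages, while its GFP- arrays did. The stage difference was -1.10 in GFP+ cells (SE 0.48), with -1.09 and -1.10 within the numbers, and -0.76 on the mean of both fractions (SE 0.34, adjusted p = 0.719). The other probe set, 1436584_PM_at, gave 0.00 in GFP+ cells (SE 0.49) and -1.11 in GFP- cells (SE 0.49). The 2 probe sets of Spry2 thus placed the lower E7.5 level in different fractions, and neither passed the threshold.

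Spry4 had 7.80 and 8.13 in GFP+ cells and 7.15 and 7.81 in GFP- cells at E7.5, and 8.82 and 8.99 in GFP+ cells and 6.84 and 8.76 in GFP- cells at E6.5. GFP+ cells at E6.5 held its highest values, and the GFP- arrays at E6.5 spread over nearly the whole range. The difference between GFP+ and GFP- cells at E6.5 was 1.11 (SE 0.60), and 1.99 and 0.24 within the numbers. The stage difference was -0.94 in GFP+ cells and -0.32 in GFP- cells (SE 0.60 each). In GFP- cells it turned to 0.64 without GFP- E6.5 replicate 2 and to 0.01 without GFP- E7.5 replicate 1. The probe set 1422021_PM_at had 6.62 and 6.83 in GFP+ and 6.07 and 6.96 in GFP- cells at E7.5, and 7.81 and 7.84 in GFP+ and 7.48 and 7.60 in GFP- cells at E6.5. There all E7.5 arrays lay below all E6.5 arrays. In the fit over probe sets its stage difference on the mean of both fractions was -1.06 (SE 0.26, adjusted p = 0.275, limma). The other kept probe set, 1422020_PM_at, did not part the stages, at 5.67 to 7.75 at E7.5 and 5.90 to 7.76 at E6.5. Its stage difference on the same mean was -0.30 (SE 0.49).

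Dusp6, the phosphatase gene, differed by replicate number as well as by stage. At E7.5 it had 6.12 and 4.52 in GFP+ cells and 5.49 and 4.21 in GFP- cells. At E6.5 it had 6.94 and 5.63 in GFP+ cells and 6.81 and 5.77 in GFP- cells. Every replicate 1 array exceeded its group's replicate 2 array, by more than 1 each time, and within each number the E7.5 arrays were lower. The stage difference was -1.20 on the mean of both fractions (SE 0.53, adjusted p = 0.712), and it passed with the replicate block (adjusted p = 0.0433). It was -0.96 in GFP+ and -1.44 in GFP- cells (SE 0.74 each). Within the numbers it was -0.81 and -1.11 in GFP+ cells and -1.32 and -1.56 in GFP- cells. At E7.5 the replicate 2 value of GFP- cells, 4.21, lay below 4.38 and that of GFP+ cells, 4.52, near it. The size of the stage difference is therefore uncertain.

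The ETS factor genes were lower at E7.5, and neither passed. Etv5 had 7.53 and 6.42 in GFP+ cells and 7.34 and 7.38 in GFP- cells at E7.5, and 8.43 and 8.28 in GFP+ cells and 8.76 and 8.80 in GFP- cells at E6.5. All E7.5 arrays lay below all E6.5 arrays, and at E6.5 both GFP+ arrays lay below both GFP- arrays. Its stage difference was -1.40 on the mean of both fractions (SE 0.28, adjusted p = 0.148), with -1.37 in GFP+ and -1.42 in GFP- cells (SE 0.39 each). The GFP+ value was -1.93 without GFP+ E7.5 replicate 1 and -0.82 without GFP+ E7.5 replicate 2. Etv4 had 4.35 and 4.43 in GFP+ cells and 4.80 and 4.73 in GFP- cells at E7.5, and 5.13 and 5.46 in GFP+ cells and 5.24 and 4.99 in GFP- cells at E6.5. Its GFP+ arrays at E7.5 sat at the 4.38 level, so the size of its difference is uncertain. It was -0.62 on the mean of both fractions (SE 0.20, adjusted p = 0.450) and -0.90 in GFP+ cells (SE 0.28). Epiblast markers were also lower at E7.5 in both fractions, and their part in the Etv5 and Etv4 results was not tested.

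**Figure D3:**
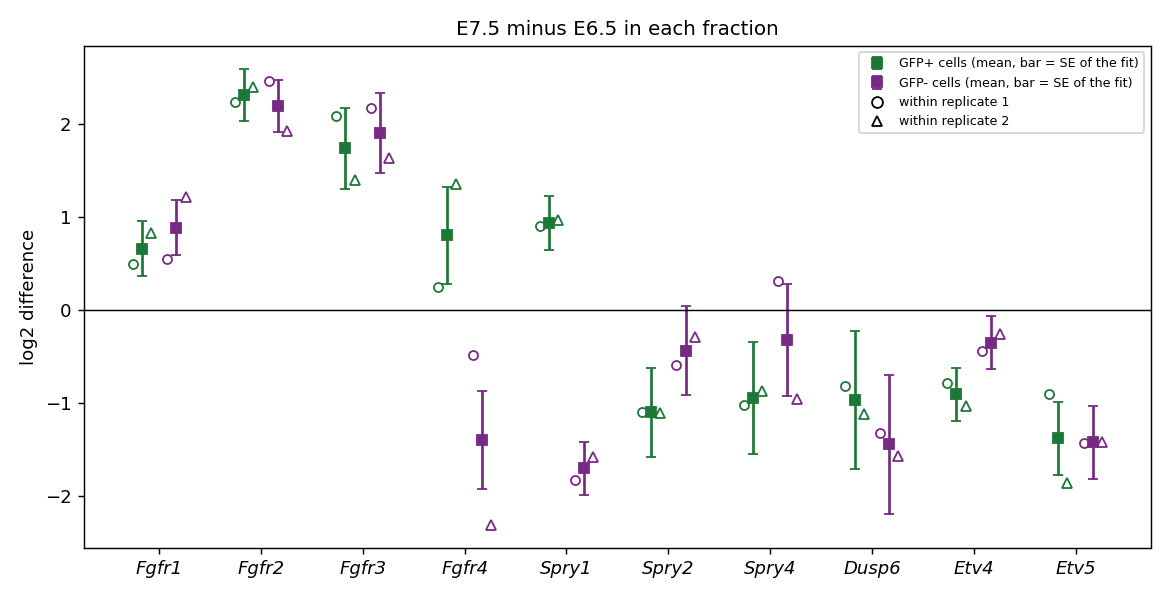
Log2 difference at E7.5 against E6.5 for each gene, in GFP+ cells (green) and GFP- cells (purple). Squares are the mean with the SE of the fit, and open symbols the difference within replicate 1 (circle) and replicate 2 (triangle). Fgfr2 and Fgfr3 lie between 1.40 and 2.46 within both numbers and both fractions, Dusp6 and Etv5 lie below 0 throughout, and Spry1 lies above 0 in GFP+ and below 0 in GFP- cells.

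Within single fractions the stage comparison called 0 of the 10 members in GFP+ cells (limma, adjusted p), where 0.0256% of all genes passed, and 0 in GFP- cells, where 0.0940% passed. At an unadjusted p under 0.05 there were 5 members in GFP+ cells (Fgfr2, Fgfr3, Spry1, Etv4 and Etv5), beside 3.85% of all genes. In GFP- cells there were 6 (Fgfr1, Fgfr2, Fgfr3, Fgfr4, Spry1 and Etv5), beside 6.48%. Fgfr4 was kept mainly through the GFP- arrays at E6.5, so its place in the counts for GFP- cells is no support. A difference of at least 1 in the same direction within both replicate numbers was met in GFP+ cells by 3 members (Fgfr2 and Fgfr3 higher, Spry2 lower), beside 2.17% of all genes. In GFP- cells it was met by 5 members (Fgfr2 and Fgfr3 higher, Spry1, Dusp6 and Etv5 lower), beside 3.27%. With the replicate block, 1 member (Fgfr2) passed in GFP- cells, beside 0.333% of all genes, and 2 members (Fgfr2 and Dusp6) passed on the mean of both fractions, beside 0.803%. At an unadjusted p under 0.05 the block gave 7 members in GFP+ cells (Fgfr1 and Dusp6 added), beside 8.69% of all genes. It gave 7 in GFP- cells (Dusp6 added), beside 12.2%, and 6 on the mean of both fractions (Dusp6 added), beside 13.6%. The GFP+ and GFP- stage comparisons use different arrays.

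Between the fractions, 0 of the 10 members passed at E6.5 (limma, adjusted p), beside 0.0769% of all genes, and 0 at E7.5, where 0% of genes passed. At an unadjusted p under 0.05 there were 2 at E6.5, Fgfr4 and Spry1, both lower in GFP+ cells, beside 5.73% of all genes, and 0 at E7.5, beside 2.41%. Fgfr4 and Spry1 were also the members at least 1 apart within both replicate numbers at E6.5, beside 3.27% of all genes. At E7.5 there were 0, beside 0.940%. Fgfr4 was kept mainly through the GFP- arrays at E6.5, where it is high, and its GFP+ values there lie below 4.38, so its place in these counts is no support. With the replicate block 1 member, Spry1, passed at E6.5, beside 0.256% of all genes. On the mean of both stages 0 members passed, beside 0.00854% of all genes, and 1 member (Spry1, -0.72, SE 0.20) had an unadjusted p under 0.05, beside 5.47%. With the replicate block, an unadjusted p under 0.05 was reached by 3 members at E6.5 (Spry4, higher in GFP+ cells, beside Fgfr4 and Spry1), with 10.8% of all genes. It was reached by 1 at E7.5 (Spry1, higher in GFP+ cells), with 6.45%, and by 2 on the mean of both stages (Spry1 lower and Spry4 higher), with 10.7%. The 4 GFP+ arrays and the 4 GFP- arrays overlapped for all 10 members, while 2.84% of all genes did not overlap.

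The change of the fraction gap with stage passed (limma, adjusted p) for 0 members and 0% of all genes. At an unadjusted p under 0.05 it held Fgfr4 (2.20, SE 0.74) and Spry1 (2.64, SE 0.41), beside 2.71% of all genes. Fgfr4 was kept mainly through the GFP- arrays at E6.5, where it is high, so its place here is no support. Median fraction differences over the 10 members were -0.10 at E7.5 and -0.11 at E6.5, against -0.01 and 0.01 over all genes.

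**Figure D4:**
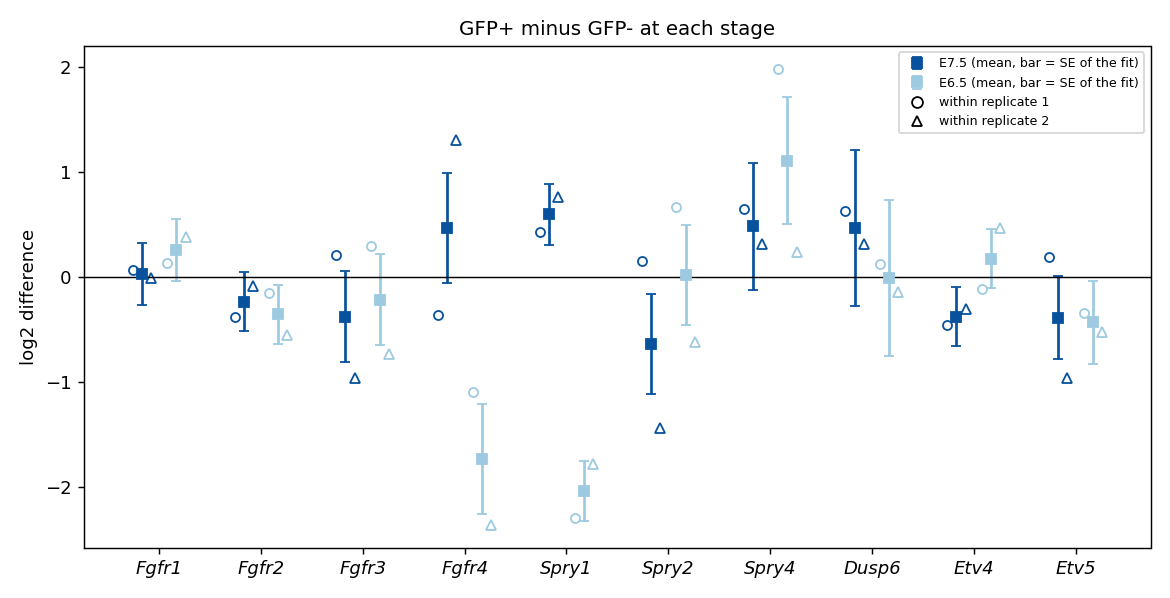
Log2 difference of GFP+ against GFP- cells for each gene at E7.5 (dark) and E6.5 (light), drawn as in the plot of stage differences. At E6.5 Spry1 lies at -2.29 and -1.78 and Fgfr4 at -1.10 and -2.36 within the replicate numbers, and at E7.5 Spry1 lies at 0.43 and 0.77.

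The rest of the pathway was read from lists chosen by function. Of 22 FGF family genes in the ligand list 14 were kept, and 0 passed in any of the 7 comparisons (limma, adjusted p). The kept genes include Fgf11, Fgf13 and Fgf14, which are not classed as secreted ligands. On the mean of both fractions 1 gene of this list was higher and 3 lower at E7.5 at an unadjusted p under 0.05, beside 7.20% of all genes. Fgf3, a ligand of the streak, averaged 8.68 in GFP+ and 8.52 in GFP- cells at E7.5, and 8.27 in GFP+ and 5.39 in GFP- cells at E6.5. Its gap between the fractions at E6.5 was 2.88 (SE 0.64, adjusted p = 0.255). Fgf5, a marker of the epiblast, averaged 6.09 in GFP+ and 6.12 in GFP- cells at E7.5, and 7.54 in GFP+ and 8.63 in GFP- cells at E6.5. Its stage difference was -1.98 (SE 0.62, adjusted p = 0.435). Fgf10 averaged 5.40 in GFP+ and 5.90 in GFP- cells at E7.5, and 6.58 in GFP+ and 4.39 in GFP- cells at E6.5.

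Of 26 co-receptor and heparan sulphate genes 20 were kept, and 0 passed. At an unadjusted p under 0.05, 4 were higher and 1 lower at E7.5 on the mean of both fractions, beside 7.20% of all genes. Cdh2, the N-cadherin gene, averaged 9.22 in GFP+ and 8.91 in GFP- cells at E7.5, and 8.81 in GFP+ and 6.14 in GFP- cells at E6.5. Its gap between the fractions at E6.5 was 2.67 (SE 0.43, adjusted p = 0.125). Ncam1, a neural cell adhesion gene whose product can bind FGF receptors, followed the stage, with averages of 7.59 in GFP+ and 7.498 in GFP- cells at E7.5 and of 5.28 in GFP+ and 5.03 in GFP- cells at E6.5. Flrt2, of a family of membrane proteins that bind FGF receptors, averaged 6.82 in GFP+ and 5.76 in GFP- cells at E7.5, and 4.57 in GFP+ and 4.81 in GFP- cells at E6.5.

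Genes of the relay between receptor and ERK passed in 0 of the 7 comparisons. Of 26 genes 18 were on the array and 16 kept, and 1 was higher and 1 lower by stage at an unadjusted p under 0.05, beside 7.20% of all genes. Rps6ka3, a kinase downstream of ERK, averaged 7.74 in GFP+ and 8.19 in GFP- cells at E7.5, and 6.93 in GFP+ and 6.57 in GFP- cells at E6.5. The adaptor gene Gab1 averaged 5.78 in GFP+ and 6.69 in GFP- cells at E7.5, and 5.04 in GFP+ and 6.06 in GFP- cells at E6.5. The RAF kinase gene Braf averaged 9.47 in GFP+ and 8.83 in GFP- cells at E7.5, and 9.41 in GFP+ and 8.81 in GFP- cells at E6.5.

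Other feedback and ERK-responsive genes did not follow 1 direction. Of 28 such genes 26 were kept, 0 passed, and 5 were higher and 2 lower by stage at an unadjusted p under 0.05, beside 7.20% of all genes. Spred1, a Sprouty relative that blocks RAF activation, averaged 7.47 in GFP+ and 7.09 in GFP- cells at E7.5, and 7.75 in GFP+ and 5.08 in GFP- cells at E6.5. Its gap between the fractions at E6.5 was 2.67 (SE 0.43, adjusted p = 0.125), opposite in sign to that of Spry1. Dusp9, another ERK phosphatase gene, averaged 8.67 in GFP+ and 7.93 in GFP- cells at E7.5, and 7.58 in GFP+ and 6.43 in GFP- cells at E6.5. Its stage difference was 1.30 (SE 0.21, adjusted p = 0.0871), opposite in sign to that of Dusp6. Phlda1 averaged 7.39 in GFP+ and 8.13 in GFP- cells at E7.5, and 4.89 in GFP+ and 5.40 in GFP- cells at E6.5.

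Of the 5 lists, the one of mesoderm genes that depend on FGF signalling in the mouse held the calls. Of 7 such genes 6 were on the array and kept. The list was picked with earlier results of these data known. At E6.5, Mesp1 and Snai1, a repressor of epithelial genes, were higher in GFP+ cells, beside 0.0769% of all genes. Snai1 was higher by 3.13 (SE 0.34, adjusted p = 0.0495, limma). Cells were sorted by the Mesp1 reporter, so the Mesp1 call is no support. Msgn1, a factor of presomitic mesoderm, rose at E7.5 by 3.36 in GFP+ (adjusted p = 0.0409) and by 5.18 in GFP- cells (adjusted p = 0.00202, SE 0.31 each). On the mean of both fractions Msgn1 rose by 4.27 (SE 0.22, adjusted p = 0.000683, limma) and the Notch ligand gene Dll1 by 1.98 (SE 0.24, adjusted p = 0.0322). Of all genes, 0.0256% passed by stage in GFP+ cells, 0.0940% in GFP- cells and 0.256% on the mean of both fractions. Tbx6, another factor of presomitic mesoderm, averaged 8.28 in GFP+ and 7.13 in GFP- cells at E7.5, and 6.46 in GFP+ and 3.92 in GFP- cells at E6.5, the last below 4.38.

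**Figure D5:**
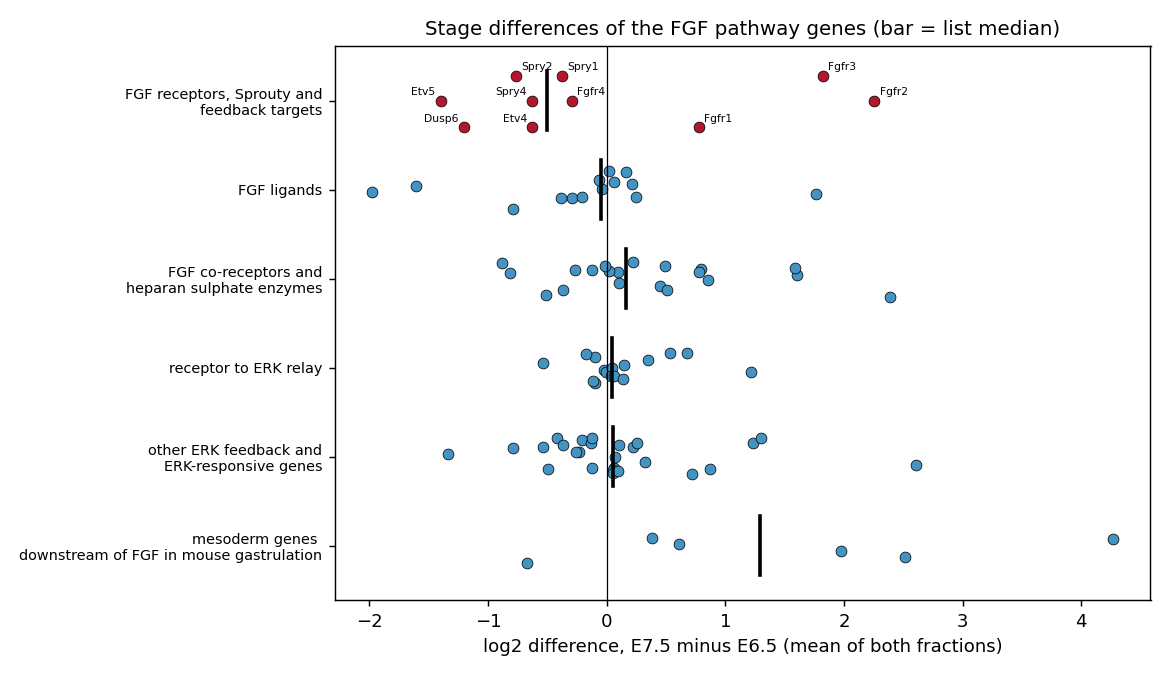
Log2 difference at E7.5 against E6.5 on the mean of both fractions, for the 10 genes (red) and the kept genes of 5 pathway lists (blue), 1 point per gene with the list median as a bar. Vertical scatter has no meaning. The 10 genes have a median of -0.50, with Fgfr2 at 2.26 and Etv5 at -1.40. The medians of the other lists are -0.05 for the FGF ligand list, 0.16 for co-receptors, 0.04 for the relay, 0.05 for other feedback genes and 1.29 for mesoderm genes.

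Members were also set against each other and against all kept genes over the 8 arrays, after the mean of each replicate number was subtracted. The points share their groups and their replicates, so the correlations are descriptions only. Fgfr2 ran with Fgfr3 (Pearson r = 0.948) and against Dusp6 (r = -0.954), and Dusp6 ran with Etv5 (r = 0.866). Spry1 ran with Fgfr4 (r = 0.843) and stood apart from Fgfr2 (r = -0.165). Both Spry1 and Fgfr4 had their highest group mean in GFP- cells at E6.5. Only 3 arrays of Fgfr4 exceeded the median of all deposited values, so its r with Spry1 is no support. Among all genes, the profile of Fgfr2 was most like those of Tln2 (talin 2, r = 0.987), Car3 (a carbonic anhydrase, r = 0.984) and Hoxb2 (a homeobox factor, r = 0.979). For Fgfr3 the nearest were Cap2 (r = 0.991), Gbf1 (r = 0.983) and Gna12 (r = 0.978). An r takes no account of size, and group means of Gbf1 and Gna12 spanned only 0.53 and 0.46, against 2.12 for Fgfr3. Etv5 was most like Otx2, a homeobox factor of the epiblast and anterior embryo (r = 0.984), followed by Gnl2 (r = 0.981) and Nefl (r = 0.980). Spry1 was most like Ryr1 (r = 0.963), Kpna3 (r = 0.961) and the keratin gene Krt7 (r = 0.958). Group means of Kpna3 spanned only 0.44, against 2.04 for Spry1. Fgfr4 was most like Adprhl2 (r = 0.972), Xrcc4 (r = 0.971) and Lcp1 (r = 0.969). As most Fgfr4 values were dim, these r values and the count for Fgfr4 that follows are no support either. An r of at least 0.95 was reached by 28 genes for Fgfr2, 23 for Fgfr3, 9 for Fgfr4, 4 for Spry1 and 31 for Etv5.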

How the data were processed

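Gene expression was measured on 8 Affymetrix mouse perfect-match arrays. The deposited values are log2 expression values per probe set, which the authors produced by RMA, per the submitters' processing notes. Its version and the genome build are not given in the sources used here. Array medians were 4.20 to 4.23 for replicate 1 and 4.54 to 4.59 for replicate 2, and sorted values differed by 0.229 between the numbers against 0.0291 and 0.0248 within them, as if each number had been normalized apart, which no label states.

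Probe sets were named from the platform annotation where it gave 1 symbol (28898 of 45141, of which 28689 matched RefSeq by Entrez identifier; 551 had several symbols, 15588 none, and 104 were controls). Probe sets with at least 2 arrays above the median of all values stayed in, 18584 probe sets of 11706 genes, and each gene was represented by its brightest probe set. limma 3.58.1 in R 4.3.3 fitted a mean per group on all 8 arrays without a block, with two-sided tests and Benjamini-Hochberg adjustment at 0.05. The number of arrays limits the precision. The labels call the replicates biological but do not say that they came from separate litters, so p-values measure the spread between these samples. The scripts were tested on simulated data.

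Replicate numbers are shared by the groups. After group means were removed, arrays with 1 number correlated across genes between every 2 groups (6 pairs, r of 0.401 to 0.532), so a fit with the number as a block was an alternative, beside other filters, probe-set rules, normalization and leaving out each array.

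Members and lists were chosen with earlier results of these data known. Genes named were all members, Mesp1, from each list the 3 with the widest range of group means and those past the threshold, and the 3 genes most like each member whose group means spanned at least 1.5.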

Additional observations from a re-analysis of the deposited data

Results flagged for a closer look

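Spry1 and Fgfr4 differed in direction between groups. Within both replicate numbers Spry1 was higher in GFP+ than in GFP- cells at E7.5 and lower at E6.5, and its gap changed by 2.64 (SE 0.41). That change was tested as the interaction of fraction and stage in limma and missed the threshold (adjusted p = 0.738). Read by stage, the same 2.64 is the stage difference in GFP+ cells minus that in GFP- cells. For Fgfr4 the stage difference was above 0 in GFP+ and below 0 in GFP- cells within both numbers, and they differed by 2.20 (SE 0.74, adjusted p = 0.9999). Only 3 arrays of Fgfr4 exceeded the median of all values, both GFP- arrays at E6.5 among them, so its place here is no support. Opposite signs of this kind were met by 12.2% of all genes for the fractions and by 11.4% for the stages.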

How the results depend on the processing

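Each group had 2 arrays, and the spread added by amplifying RNA of 50 cells was not measured apart. Of 552 values of single members under the alternatives, 529 kept their direction and side of the threshold, 12 moved past it, 8 no longer passed and 3 reversed. The reversals were Spry4 by stage in GFP- cells (-1.28 to 0.643 over the arrays left out, 0.00957 without GFP- E7.5 replicate 1, and above 0 also without GFP- E6.5 replicate 2) and Spry2 by stage in GFP+ cells with its other probe set, chosen after seeing the data (0.00114). The cause was not tested.

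With a fixed replicate block, the members past the threshold numbered 1 between the fractions at E6.5, 1 by stage in GFP- cells and 2 by stage on the mean of both fractions. With a random replicate block they numbered 1 between the fractions at E6.5 and 1 by stage in GFP+ cells, where 23 of 11706 genes passed. They numbered 2 by stage in GFP- cells and 3 (Fgfr2, Fgfr3 and Etv5) on the mean of both fractions. At the adjusted threshold the blocks changed no other count of members. With quantile normalization of all arrays 1 member passed by stage in GFP- cells, and with an intensity trend 1 there and 2 (Fgfr1 and Fgfr2) on the mean of both fractions. Leaving out 1 array gave 0 to 1 on that mean. With the mean of all probe sets, a difference of at least 1 within both replicate numbers was counted again. Between the fractions at E6.5 it held for 1 member (Spry1), beside 310 of 11706 genes. By stage it held for 1 member in GFP+ cells (Fgfr2), beside 193 genes. In GFP- cells it held for 4 members, beside 299 genes, and Fgfr2 was no longer among them. This mean also took in probe sets that the filter did not keep, such as 1443211_PM_at of Fgfr2 at 3.15 to 3.79. Over all genes, the stage calls on the mean of both fractions numbered 30, and 94 with the fixed block, 214 with the random block, 50 with quantile normalization and 74 with a trend. Between the fractions at E6.5 they numbered 9, and 30, 118, 16 and 25 under the same settings, and 0 with only the 4 arrays compared. By stage in GFP- cells they numbered 11, and 39, 136, 26 and 34, and 4 with only the 4 arrays.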
